A study of Mus musculus with 2 samples.

Results

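The genes described here encode the replacement histone variants of the mouse testis: H3.3 (H3f3a and H3f3b), H2A.Z (H2afz and H2afv), H2A.X (H2afx), H2A.J (H2afj) and macroH2A (H2afy and H2afy2). They were taken as a list of 8 gene symbols among the 32285 genes counted. The data were droplet-based 3′ single-cell RNA counts from whole dissociated testis, with 1 control library (Dot1L fl/+; Cre-) and 1 conditional knockout library (cKO; Dot1L fl/delta; Ddx4-Cre+). Both genotypes carry a floxed Dot1L allele. DOT1L is the methyltransferase of lysine 79 on histone H3. Ddx4 is a germ cell gene, so its Cre acts in the germ line. By genotype the somatic cells of the cKO mouse are fl/delta and those of the control fl/+, which leaves 1 delta allele in the former. The labels give neither the animals' age nor the number of animals per library. With 1 library per genotype there is no replicate check and no test, and every difference below is between 2 libraries. The 95% intervals are exact and cover counting error only.

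Most histones are made in S phase for the new DNA copy. Replacement variants can also be made outside replication and are exchanged into chromatin by dedicated chaperones. In the male germ line they take part in meiotic sex chromosome silencing and in the remodelling that ends with protamines in place of histones. H3.3 replaces H3 on the silenced sex chromosomes, phosphorylated H2A.X and macroH2A mark the same sex body, and H2A.Z is a variant of promoters that occupies the silent sex chromosomes after meiosis.

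The 2 H3.3 genes are shown first because they make the same protein from different messages. Their coding sequences of 408 bases were 76.7% identical, and the translated proteins of 136 residues, counting the first methionine, had 0 differences. The second coding exons, from GENCODE vM21 on mm10, lie on the minus strand at chr1:180810117-180810270 and chr11:116023625-116023778. Capitals mark the 42 of 154 bases that differ between the genes.
H3f3a: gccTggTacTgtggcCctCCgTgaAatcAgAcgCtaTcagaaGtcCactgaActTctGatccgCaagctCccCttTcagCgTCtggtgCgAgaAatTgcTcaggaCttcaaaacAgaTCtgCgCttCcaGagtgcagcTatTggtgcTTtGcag
H3f3b: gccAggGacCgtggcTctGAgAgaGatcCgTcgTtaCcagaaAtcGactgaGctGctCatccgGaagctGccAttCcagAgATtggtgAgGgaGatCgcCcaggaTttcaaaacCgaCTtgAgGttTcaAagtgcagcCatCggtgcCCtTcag

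The H2A.Z genes are a second such pair, with H2afz coding for H2A.Z.1 and H2afv for H2A.Z.2. Their coding sequences of 384 bases were 79.2% identical, and the 128 residues differed at 3. In the third coding exon, at chr3:137865520-137865633 (plus strand) and chr11:6433724-6433837 (minus strand), capitals mark 23 of 114 bases that differ.
H2afz: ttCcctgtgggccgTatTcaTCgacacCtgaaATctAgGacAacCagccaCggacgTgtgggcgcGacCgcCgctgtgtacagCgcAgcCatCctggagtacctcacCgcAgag
H2afv: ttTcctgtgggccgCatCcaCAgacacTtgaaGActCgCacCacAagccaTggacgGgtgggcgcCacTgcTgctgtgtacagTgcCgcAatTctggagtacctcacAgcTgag

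H2A.X is told from other H2A proteins by its tail, where a serine followed by glutamine is phosphorylated at DNA breaks and on the unsynapsed sex chromosomes. The last 60 coding bases of H2afx, at chr9:44335131-44335190 on the plus strand, are shown with those 2 codons in capitals. The serine is residue 140 of 143, counted from the first methionine.
H2afx: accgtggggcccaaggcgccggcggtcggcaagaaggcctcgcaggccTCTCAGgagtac

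Transcripts were counted as UMIs (unique molecular identifiers), which tag each captured RNA once and come from the 3′ ends of transcripts. The last 400 bases of each member shared 0% of their 40-base words with any other gene, so the paired genes were counted apart. As each captured transcript gives 1 tag at its 3′ end, whatever its length, levels are compared between genes with no length correction. They are given as CPM (UMIs of a gene per 1e6 UMIs of its cell class). Whether reads in introns were also counted is not given in the sources used here, so comparisons between genes are approximate. Some members overlap other annotated genes: H3f3a overlaps Gm17275 and the antisense H3f3aos, H2afx Gm44335, H2afj Gm44364, H2afy Gm47071, and H2afy2 Aifm2 and Mir5108. How reads in these overlaps were assigned is not given in the sources used here.

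The control library held 17408 barcodes with 155487418 UMIs and the cKO library 20601 with 156518838, of which 15580 and 18179 were kept as cells. The libraries shared 102 barcode sequences. Cells were grouped into 23 clusters without any histone gene, and 8 classes were named from fixed marker genes: 5 of germ cells and 3 of somatic cells. Their marker lists of 8 to 13 genes each had 8 or more members highest in the class of that name. The libraries stood apart in elongating spermatid-like cells. Clusters 2 and 4 held 1489 and 1450 control but 8 and 4 cKO cells, clusters 19 and 21 held 1137 and 1421 cKO but 10 and 2 control cells, and only cluster 11 (398 and 518 cells) mixed both. Unnamed clusters took 34.1% of the control and 37.6% of the cKO library, and low-RNA clusters 14.6% and 14.9%. Spermatid marker RNA was present in every somatic class at 0.418 to 0.527 of its level in all cells. Free RNA estimated from it had a median of 1301 UMIs per control cell (1018 to 1766 over the somatic classes). In the cKO it was 1366 UMIs per cell (1201 to 2742).

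Dot1l itself was lower in the cKO library in all 5 germ cell classes. Its level was 98.3 CPM in control and 44.1 in cKO mid to late spermatocyte-like cells, and 35.6 and 4.81 CPM in round spermatid-like cells. In spermatogonium-like cells the values were 57.4 and 32.1 CPM. As the floxed part of the gene is not given in the labels, a 3′ tag may lie outside it and check nothing.

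H3.3, summed over its genes, was the most abundant variant message in each germ cell class, and its 2 genes followed different courses (plots of level by germ cell cluster). H3f3b stood at 3230 CPM in spermatogonium-like and 3450 in early spermatocyte-like cells of the control, and at 2860 and 2780 in the cKO. It then dipped within the spermatocytes. In cluster 5, where Piwil1 was highest, H3f3b was at 2420 CPM in control and 2080 in cKO, and in cluster 15, where Ccna1 was highest, at 497 and 486. Both libraries thus showed the same low point. The level came back to 2200 and 1860 CPM in round spermatid cluster 7 and to 2850 and 3150 in cluster 6, where the transition protein Tnp1 was rising.

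H3f3a had no such dip. It stood at 1370 CPM in control and 1330 in cKO spermatogonium-like cells, was lowest before the spermatids in early spermatocyte-like cells (743 and 854), and was highest in round spermatid-like cells (1680 and 1990). At the low point of H3f3b, in cluster 15, it was at 1170 and 1340 CPM. The share of H3f3a among all H3.3 UMIs changed with both genes. From spermatogonium-like cells (29.8% in control and 31.7% in cKO) it fell as H3f3a fell, and in cluster 15 it rose as H3f3b fell. It was 17.7% in control (16.9 to 18.5) and 23.5% in cKO early spermatocyte-like cells (22.8 to 24.3), 70.2% and 73.5% in cluster 15, and 36.9% and 40.5% in cluster 6.

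**Figure D1:**
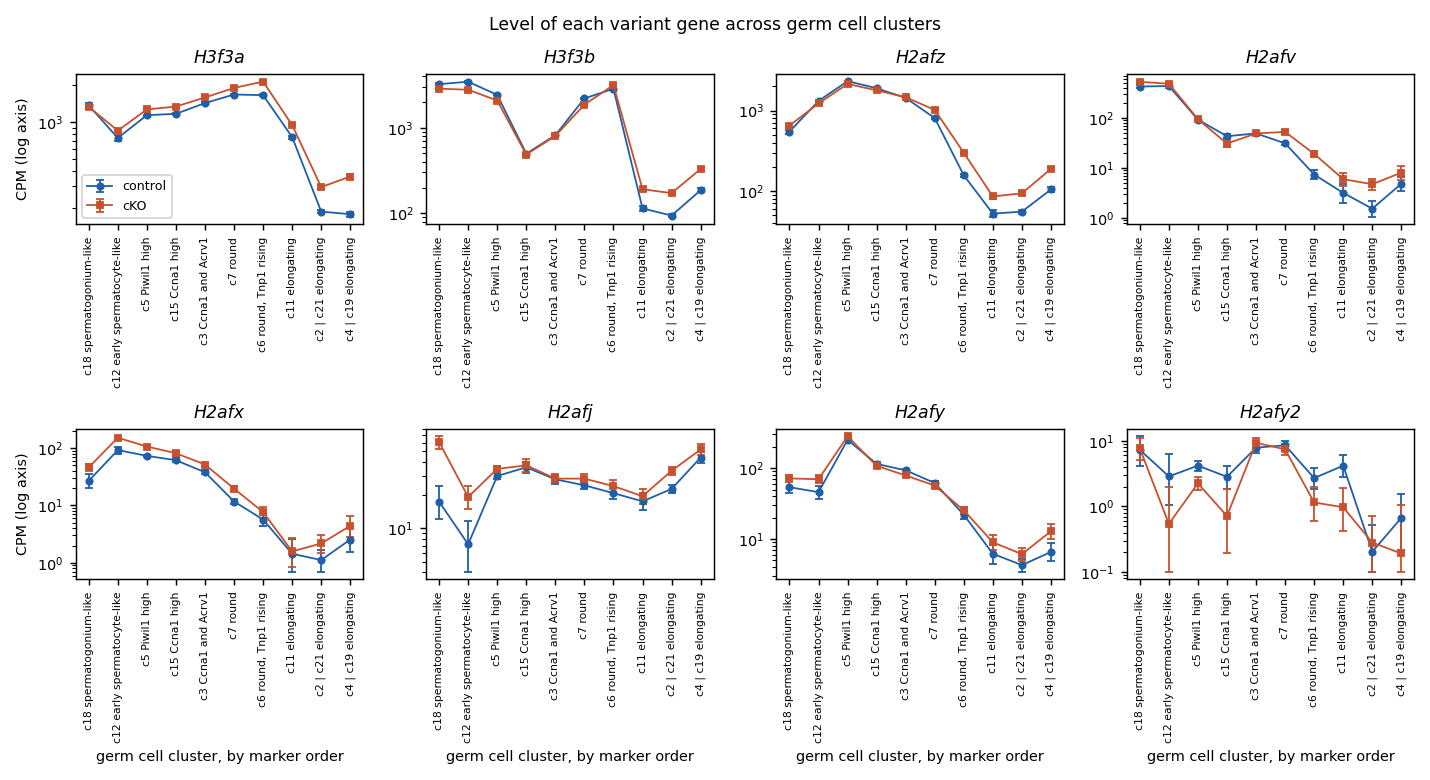
Level of each variant gene (CPM, log axis, panels on their own scales) in germ cell clusters ordered by their markers, for control (blue circles) and cKO (red squares), with 95% Poisson intervals. Library-specific elongating clusters are drawn in pairs (control | cKO), cluster 13 is not drawn, and values or bounds under 0.1 CPM are drawn at 0.1. H3f3b dips to 497 and 486 CPM in cluster 15, a dip H3f3a does not share.

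**Figure D2:**
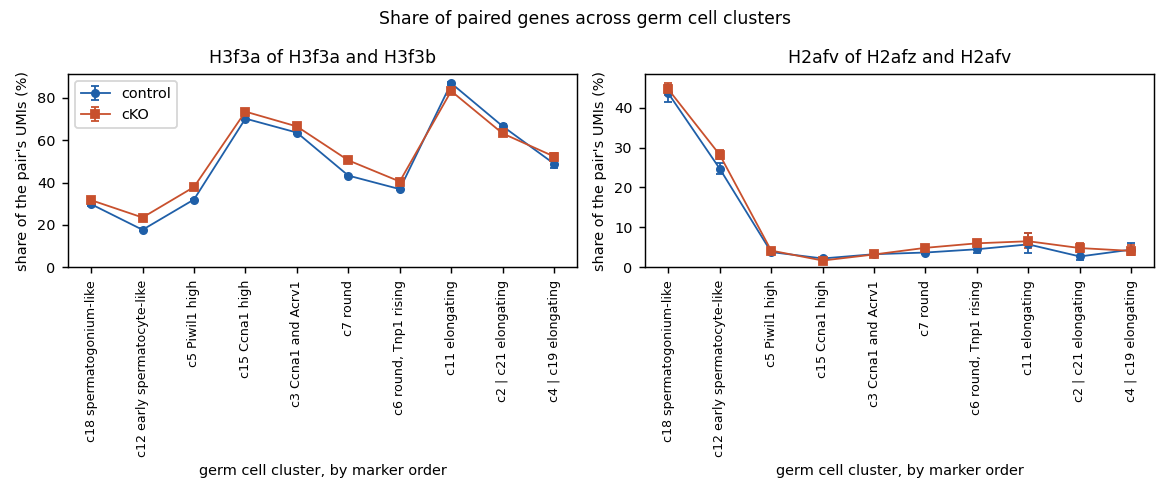
Share of H3f3a among the UMIs of both H3.3 genes (left) and of H2afv among those of both H2A.Z genes (right), in percent, along the same clusters, with exact 95% intervals. The H3f3a share peaks in clusters 15 and 11, and the H2afv share drops after the early spermatocyte-like cluster from 24.7% and 28.2% to under 7%.

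Between the libraries, H3f3b was lower in cKO early spermatocyte-like cells, by a log2 ratio of -0.31 (-0.36 to -0.27), and H3f3a was higher there at 0.20 (0.11 to 0.29), or -0.09 with a stricter mitochondrial limit. Neither reached 1.5-fold, the size taken here as a call. In all of mid to late spermatocyte-like cells the ratios were 0.15 for H3f3a and -0.03 for H3f3b. By cluster, H3f3b there ran from -0.21 in cluster 5 to -0.03 in clusters 3 and 15. The class ratios were 0.25 (0.23 to 0.26) and -0.03 in round spermatid-like cells. Their clusters differed in sign for H3f3b, at 0.15 (0.12 to 0.17) in cluster 6 and -0.24 (-0.26 to -0.22) in cluster 7. As whole classes, H3f3a lay a little above the all-gene medians of 0.09 and 0.12, and H3f3b below them.

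Taken as a class, elongating spermatid-like cells had both H3.3 genes at their lowest levels. H3f3a stood at 301 CPM in control and 502 in cKO, a log2 ratio of 0.74 (0.70 to 0.77). H3f3b stood at 119 and 208 CPM, a ratio of 0.81 (0.75 to 0.87). These ratios stand on a class in which the median of all measured genes was 0.42 and in which transition protein and protamine genes took 28.2% of control and 20.1% of cKO UMIs. Scaling by the median of gene ratios moved every gene of this class by -0.38, to 0.36 for H3f3a and 0.43 for H3f3b. In the mixed cluster 11 alone H3f3a was at 756 and 947 CPM (0.33) and H3f3b at 114 and 191 (0.75). With only mixed clusters, H3f3a was instead lowest in early spermatocyte-like cells (743 and 854 CPM). In the whole elongating class the free RNA estimate was 47.1% and 39.5% of the H3f3a UMIs, and 163% and 112% of those of H3f3b. Free RNA cannot exceed the UMIs counted, so the estimate was too high for this class. How much of the H3f3b level was free RNA could therefore not be told.

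The promoters of the pair are shown because the levels diverge although the protein is one. These are the 250 bases before the RefSeq start on GRCm38.p6, at chr1:180813606-180813855 and chr11:116024505-116024754, both on the minus strand. Capitals mark the letters CCAAT and TGACG on either strand.
H3f3a: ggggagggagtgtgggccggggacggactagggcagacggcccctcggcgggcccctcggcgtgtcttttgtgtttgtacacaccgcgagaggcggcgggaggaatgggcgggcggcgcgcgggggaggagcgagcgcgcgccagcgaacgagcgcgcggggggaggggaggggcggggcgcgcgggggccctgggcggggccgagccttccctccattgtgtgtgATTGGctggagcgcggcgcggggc
H3f3b: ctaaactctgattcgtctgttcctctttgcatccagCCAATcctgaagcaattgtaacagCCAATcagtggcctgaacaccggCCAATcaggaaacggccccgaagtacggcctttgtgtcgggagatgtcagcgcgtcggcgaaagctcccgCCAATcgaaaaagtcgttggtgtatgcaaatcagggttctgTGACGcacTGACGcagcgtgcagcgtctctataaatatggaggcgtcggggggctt
CCAAT is the core of the CCAAT box, and TGACG is one side of the cyclic AMP response element. H3f3b held 4 matches of CCAAT and 2 of TGACG, which do not overlap, and H3f3a 1 and 0. Of 32851 promoter windows of this length 33.8% held CCAAT and 0.84% held it 4 or more times. TGACG was held by 17.8%, and 2 or more times by 3.9%. Among the 7 members with a promoter entry, H2afv also held 4 CCAAT matches, H2afj 3, H2afz 2, and H2afy and H2afy2 0.

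The H2A.Z genes parted along spermatogenesis. H2afz rose from 547 CPM in control and 651 in cKO spermatogonium-like cells to 1320 and 1230 in early and 2000 and 1930 in mid to late spermatocyte-like cells. It then fell to 594 and 744 CPM in round and 65.6 and 109 in elongating spermatid-like cells. In CPM, H2afv was high only at the start, with 424 and 525 in spermatogonium-like and 433 and 483 in early spermatocyte-like cells. It was at 72.9 and 77 CPM in mid to late spermatocyte-like cells. Per cell it fell less, from 3.27 UMIs in control and 3.88 in cKO spermatogonium-like cells to 2.13 and 2.03 in mid to late spermatocyte-like cells. H2A.Z.2 thus made up 43.6% of control (41.4 to 45.8) and 44.6% of cKO H2A.Z UMIs in spermatogonium-like cells and 3.51% and 3.83% in mid to late spermatocyte-like cells. The 2 neighbours at the top of the H2afv order, spermatogonium-like and early spermatocyte-like cells, had overlapping intervals in the control (396 to 453 and 405 to 462 CPM).

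In spermatogonium-like cells the cKO over control log2 ratio was 0.25 (0.15 to 0.36) for H2afz and 0.31 (0.19 to 0.43) for H2afv, the latter -0.04 with the 5% mitochondrial limit. It was -0.10 and 0.16 in early and -0.05 and 0.08 in mid to late spermatocyte-like cells. Within the mid to late class, cluster 15 had H2afv at 43 CPM in control and 30.7 in cKO (-0.49, -0.75 to -0.22). H2afv was at 23.3 CPM in control and 39.6 in cKO round spermatid-like cells, a log2 ratio of 0.77 (0.64 to 0.90), and H2afz at a ratio of 0.32 (0.30 to 0.35). Placing cluster 3, which carries both spermatocyte markers and the acrosomal gene Acrv1, with the round spermatids brought the H2afv ratio to 0.45. In cluster 6 H2afz stood at 156 and 298 CPM (0.94, 0.85 to 1.02) and H2afv at 7.38 and 19.1 (1.37, 1 to 1.75), both higher in the cKO. Tnp1 in that cluster was 9370 CPM in control and 3840 in cKO, and Ccna1 16.8 and 29.4, so the 2 libraries' cells also differed in stage markers; their part in the ratios was not tested. Elongating spermatid-like cells gave ratios of 0.73 (0.66 to 0.81) for H2afz and 1.13 (0.75 to 1.53) for H2afv, the latter on 2.62 and 5.74 CPM, and the free RNA estimate exceeded the observed UMIs of both genes in both libraries (169% to 253%).

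In CPM, H2afx was highest in early spermatocyte-like cells. Per cell it was highest in mid to late spermatocyte-like cells, at 1.77 UMIs in control and 2.35 in cKO, against 0.575 and 0.867 in early ones. Its control levels were 26.8 CPM in spermatogonium-like, 91.9 in early spermatocyte-like, 60.8 in mid to late spermatocyte-like, 9.76 in round and 1.5 in elongating spermatid-like cells. The cKO library had the same order at higher values, 46, 151, 89.2, 15 and 2.42 CPM. The log2 ratio was 0.78 (0.33 to 1.25), 0.72 (0.48 to 0.96), 0.55 (0.49 to 0.61), 0.62 (0.41 to 0.83) and 0.69 (0.14 to 1.25) along the same classes. Every interval lay above 0. The 4 spermatocyte clusters (5, 13, 15 and 3) gave ratios of 0.53, 0.54, 0.41 and 0.45.

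The H2afx ratio was close to the call limit, so small changes in processing moved it across. In round spermatid-like cells it ran from 0.51 to 0.68 over the alternatives, and in elongating cells it was 0.13 in the mixed cluster 11. After thinning each cell to 2000 UMIs, 11.6% of 329 control (8.30 to 15.5) and 18.3% of 628 cKO early spermatocyte-like cells (15.4 to 21.6) had an H2afx UMI. The thinned shares overlapped in spermatogonium-like cells, at 9.91% of 212 (6.24 to 14.7) and 10.8% of 426 (8.01 to 14.1), and in round spermatid-like cells, at 2.36% (1.68 to 3.23) and 2.44% (1.67 to 3.45). They were apart in mid to late spermatocyte-like cells, at 10.7% of 2008 control (9.34 to 12.1) and 16.5% of 2349 cKO cells (15 to 18.1). In thinned elongating spermatid-like cells, where the level was no higher than the free RNA estimate, the shares were 0.337% and 0.545%. Unthinned, they were 32% and 41.2% in early spermatocyte-like cells at median depths of 5404 and 5252 UMIs, against 1.46% and 2.07% in elongating cells at 8282 and 6704.5.

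H2afj encodes an H2A variant known from work on senescent cells. Among measured members it had the largest log2 ratios in spermatogonium-like and early spermatocyte-like cells. Over all kept cells its ratio of 0.43 lay below those of H2afx (0.74) and H2afv (0.57). In spermatogonium-like cells H2afj was at 17.5 CPM in control (12.3 to 24.2) and 60.7 in cKO (52.9 to 69.4). The log2 ratio was 1.79 (1.28 to 2.35), from 36 and 214 UMIs. Early spermatocyte-like cells had 7.18 and 19.3 CPM, a ratio of 1.43 (0.61 to 2.34) on only 15 and 71 UMIs. The free RNA estimate was 78.6% of these UMIs in control and 45% in cKO. For spermatogonium-like cells it was 26.1% and 11.1% of the H2afj UMIs. The levels then lay close together, at 30.2 and 33.3 CPM in the later spermatocytes, 23.4 and 26.7 in round and 26.4 and 32.8 in elongating spermatid-like cells, where the ratio of 0.32 became -0.06 with median-of-ratios scaling. In CPM, H2afj was also the only member to keep its round spermatid level in elongating cells in both libraries. There the free RNA estimate was 13.2% and 17% of its UMIs.

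Higher H2afj levels in the cKO library also appeared outside the germ line, on fewer UMIs. Leydig-like cells, the steroid-producing cells of the interstitium, had 55.8 CPM in control (21 UMIs) and 196 in cKO (396 UMIs), a ratio of 1.82 (1.18 to 2.52). Macrophage-like cells had 17.8 and 141 CPM, a ratio of 2.98 (1.38 to 5.29), but from 3 and 74 UMIs. The free RNA estimate was 20.3% and 9.3% of the Leydig-like and 71.9% and 11% of the macrophage-like H2afj UMIs. Mesenchymal-like cells had 0 control UMIs, which allows up to 47.8 CPM, and 56.8 CPM in cKO. In the unnamed clusters 1 and 9, led by Sertoli cell markers, H2afj stood at 30.6 and 65.2 CPM (1.09, 0.63 to 1.57) and at 39.5 and 106 CPM (1.43, 0.75 to 2.17), whereas in unnamed cluster 0, led by hemoglobin genes, it was 32.8 and 33.4 CPM (0.03, -0.35 to 0.40).

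The H2afj ratio stayed over 1.5-fold under every alternative run: from 1.35 to 2.09 in spermatogonium-like, 0.87 to 2.85 in early spermatocyte-like, 1.17 to 2.22 in Leydig-like and 2.11 to 4.53 in macrophage-like cells. The share of spermatogonium-like cells with an H2afj UMI was 12.8% of 266 in control and 31.7% of 477 in cKO, at median depths of 6816 and 6146 UMIs, and 3.3% (1.34 to 6.68) and 12.9% (9.88 to 16.5) after thinning. No class here is known to lack the gene. Among germ cell classes the lowest thinned shares were those of early spermatocyte-like cells, 1.52% (0.495 to 3.51) and 4.30% (2.85 to 6.19), which overlapped. Thinned shares also overlapped in Leydig-like cells, at 22.6% of 31 (9.59 to 41.1) and 34.9% of 152 (27.3 to 43). In macrophage-like cells they overlapped too, at 7.69% of 26 (0.946 to 25.1) and 26.4% of 106 (18.3 to 35.9). Markers of other cells in the spermatogonium-like class were present at 252 CPM in control and 346 in cKO for the Sertoli list (11 of 11 with a UMI in both), 19 and 18.2 CPM for the Leydig list (4 and 6 of 8, with Hsd3b1 and Hsd3b6 at 0 in both) and 10.7 and 12.5 CPM for the macrophage list (5 and 6 of 10, with Adgre1, C1qc, Csf1r and Cd74 at 0 in both). The elongating spermatid list stood at 21500 and 29900 CPM in that class and the round spermatid list at 316 and 522, beside 2200 and 1700 CPM for the spermatogonium list itself. Their part in the H2afj level was not tested.

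**Figure D3:**
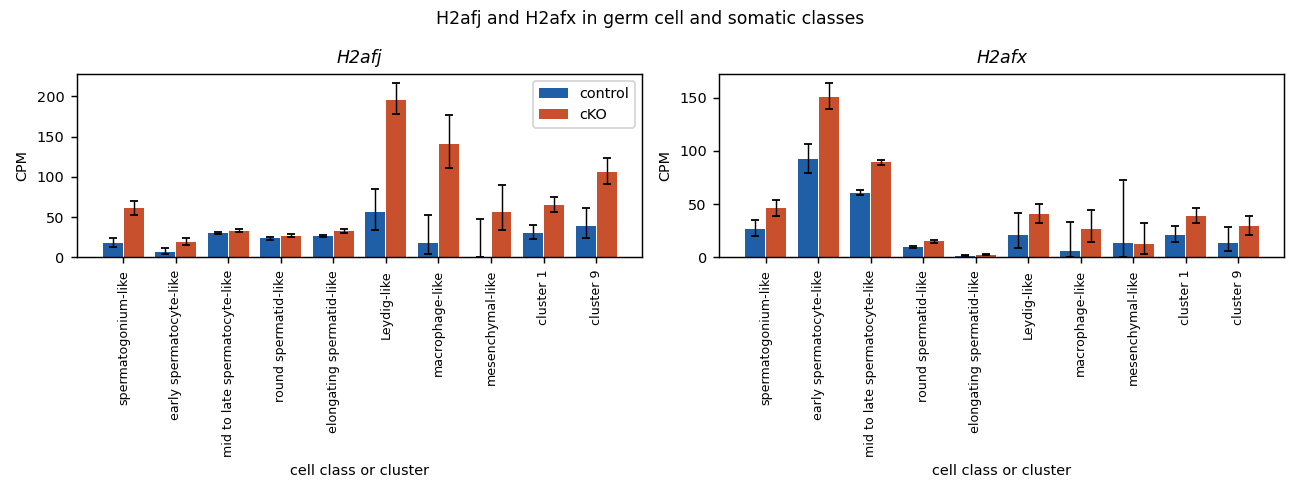
Levels of H2afj (left) and H2afx (right) in CPM, in germ cell classes, somatic classes and unnamed clusters 1 and 9, for control (blue) and cKO (red), with 95% Poisson intervals. The cKO bar of H2afj exceeds the control bar by far in spermatogonium-like, Leydig-like and macrophage-like cells and is near it from mid to late spermatocytes onward.

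MacroH2A carries a large non-histone macro domain and is known from silent chromatin such as the inactive X chromosome. H2afy, the gene of macroH2A1, peaked in mid to late spermatocyte-like cells at 183 CPM in control and 213 in cKO, and most of all in the Piwil1-rich cluster 5 at 251 and 282. With classes from marker scores it was instead highest in early spermatocyte-like cells in both libraries. Before and after that peak it was lower, with 54 and 71.8 CPM in spermatogonium-like, 45.9 and 69.8 in early spermatocyte-like and 48.8 and 44.7 in round spermatid-like cells. The spermatogonium-like, early spermatocyte-like and round control values had overlapping intervals. The log2 ratio was 0.41 in spermatogonium-like cells (-0.02 with the 5% mitochondrial limit). It was 0.60 in early spermatocyte-like cells (0.26 to 0.96, and 0.17 with classes from marker scores). In mid to late spermatocyte-like cells it was 0.22, above the ratios of their clusters 3 (-0.24), 5 (0.17), 13 (0.09) and 15 (-0.10). The round spermatid-like value of -0.13 (-0.23 to -0.02) lay below those of clusters 6 (0.21) and 7 (-0.12). Cluster 5, where H2afy was highest, held 723 control and 1064 cKO cells, and the part of cluster mix was not tested. In elongating cells the ratio was 0.67, where the free RNA estimate was 238% and 220% of the observed UMIs.

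H2afy2, the gene of macroH2A2, was the rarest variant message in every germ cell class of both libraries. It was at 7.3 CPM in control and 7.66 in cKO spermatogonium-like cells, 4.95 and 3.69 in later spermatocytes and 6.65 and 5 in round spermatid-like cells. Its ratios, -0.42 (-0.68 to -0.17) and -0.41 (-0.73 to -0.10) in the last 2, were below 0, but the first was 0.15 when each cell was weighted equally. In elongating spermatid-like cells 38 control and 13 cKO UMIs gave 1.12 and 0.47 CPM and a ratio of -1.25 (-2.28 to -0.31). The free RNA estimate was 51.8% of these UMIs in control and 117% in cKO, and under 3 alternatives the pair had too few UMIs to be counted or no value. It was the only member lower in the cKO library there. Leydig-like cells held its highest control level, 26.6 CPM on 10 UMIs.

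In somatic cells the remaining members were lower in number of UMIs and partly covered by free RNA. Leydig-like cells had H3f3a at 983 CPM in control and 1190 in cKO, H3f3b at 978 and 1270 and H2afz at 683 and 915, with 47.1% to 67.3% of these UMIs matched by the free RNA estimate. H2afv there was 77 and 137 CPM (0.83, 0.28 to 1.44), with 28.1% so matched in both libraries, and its ratio was 0.54 with classes from marker scores. H2afy was at 45.2 and 95.2 CPM (1.08, 0.36 to 1.89) in Leydig-like and at 77.1 and 148 (0.94, 0.09 to 1.92) in macrophage-like cells, and the free RNA estimate was 34.1% to 88.9% of its UMIs. With each cell weighted equally these H2afy ratios were 0.51 and 0.11. H2afx in Leydig-like cells had 8 and 82 UMIs and a ratio of 0.94 (-0.11 to 2.20). The somatic classes were small, with 121 control and 368 cKO Leydig-like, 45 and 164 macrophage-like and 36 and 139 mesenchymal-like cells.

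Counted by size (1.5-fold or more, with 50 or more UMIs over both libraries), 13 of the 40 pairs of a member and a germ cell class were higher and 1 was lower in the cKO library. Of the 40, 2 had too few UMIs to be counted, H2afy2 in spermatogonium-like and in early spermatocyte-like cells. These counts are read against the share of all measured genes past the same limit. In spermatogonium-like cells 2 of 7 measured members (H2afx and H2afj) were higher, where 13.2% of all genes were, and 0 were lower, where 6.24% were. In early spermatocyte-like cells 3 of 7 (H2afx, H2afj and H2afy) were higher against 8.77% of all genes, and 0 lower against 3.37%. Mid to late spermatocyte-like cells had 0 of 8 higher against 14.7%, and 0 lower against 4.83%. Round spermatid-like cells had 2 of 8 (H2afv and H2afx) higher against 19.1%, and 0 lower against 6.79%.

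Elongating spermatid-like cells had 6 of 8 members higher, all but H2afj and H2afy2, against 37% of all genes, and 1 lower, H2afy2, against 3.98%. The members' median ratio there was 0.71 beside 0.42 over all genes. With median-of-ratios scaling 7 of the 40 pairs were over the limit; of the 6 in elongating cells H2afv (0.76) was, and the others lay between 0.30 and 0.43. With free RNA subtracted 7 of the 40 were over it. In elongating cells H3f3b, H2afz, H2afv, H2afx and H2afy had no value left, as the estimate, too high there, exceeded their UMIs. H2afx in round spermatids came to 0.57. Among somatic classes, Leydig-like cells had 4 of 7 higher (H2afv, H2afx, H2afj and H2afy) against 23.9%, and 0 lower against 5.87%. Macrophage-like cells had 2 of 6 (H2afj and H2afy) higher against 21.5% and 0 lower against 12.6%, and mesenchymal-like cells 0 of 4 in either direction against 16.6% and 9.82%. The members' medians in the classes before elongation were 0.31, 0.20, 0.11 and 0.22, beside -0.04, 0.01, 0.09 and 0.12 over all genes.

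**Figure D4:**
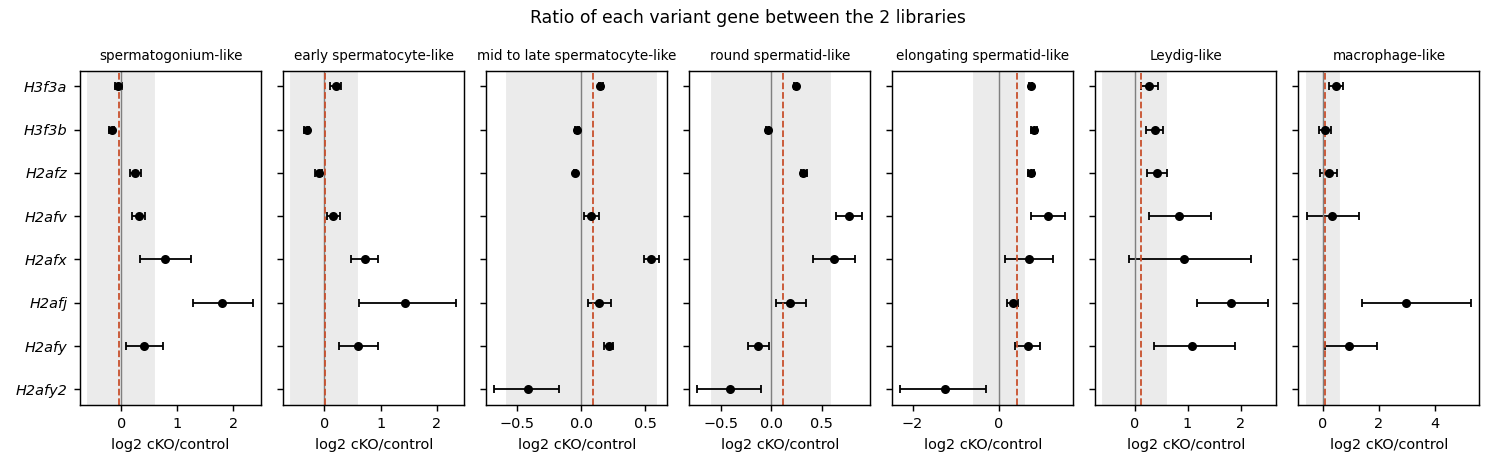
Log2 ratio of cKO over control for each measured member in 7 cell classes, with exact 95% intervals; each panel has its own axis. The grey band spans less than 1.5-fold and the red dashed line is the median over all measured genes of the class, which is 0.42 in elongating spermatid-like cells, where 6 of 8 members lie beyond the band on the higher side.

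The enzymes and chaperones that place these variants were counted by lists. Of the 8 H3.3 deposition genes, 2 were higher in spermatogonium-like cells (13.2% of all genes), 1 in early (8.77%) and 2 in later spermatocyte-like cells (14.7%). The highest and lowest genes of each list are named among those with 100 or more UMIs. Dek, a chromatin protein that binds H3.3, stood at 275 CPM in control and 471 in cKO spermatogonium-like cells (0.78, 0.64 to 0.92), at 127 and 239 in early spermatocyte-like cells (0.91), and at 25 and 43.8 in round spermatid-like cells (0.81, 0.68 to 0.94). Asf1a, the chaperone that hands H3 to the HIRA complex, was at 29.2 and 48.9 CPM in the later spermatocytes (0.74, 0.66 to 0.83) and 18.9 and 31.1 in round spermatid-like cells (0.72, 0.57 to 0.87). Of 7 measured in round spermatids 3 were higher, beside 19.1% of all genes, 1 of them Hira at 1.65 on 20 and 47 UMIs, and the lowest were Daxx (46.9 and 35.9 CPM, -0.38, -0.50 to -0.27) and Ubn1 (-0.16). In elongating cells 3 of 5 were higher, beside 37% of all genes, with Dek at 1.57 and Asf1a at 1.04, and the lowest were Daxx at 0.02 and Ubn1 at 0.50. The list's median was 0.26 in round and 0.77 in elongating cells.

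Of the 20 genes of H2A.Z deposition and removal, 0 were higher and 1 lower in spermatogonium-like cells (Vps72, 46.2 and 30.6 CPM, -0.59). Of all genes 13.2% were higher and 6.24% lower there. None was past the limit either way in early spermatocyte-like cells, beside 8.77% higher and 3.37% lower of all genes. The same held in mid to late spermatocyte-like cells, beside 14.7% and 4.83%. In round spermatid-like cells 3 of 18 were higher, beside 19.1% of all genes, and 0 lower, beside 6.79%. Srcap, the ATPase of the SRCAP complex, had 0.78 on 35 and 45 UMIs, and the highest others were Mrgbp, a subunit of the TIP60 complex, at 7.84 and 17.5 CPM (1.16, 0.94 to 1.37), and Ino80 (0.63), while Mbtd1 (-0.48) and Epc2 (-0.47) were lowest. In elongating cells 9 of 18 were higher, beside 37% of all genes, with Mrgbp at 5.23 and 17 CPM (1.70) and Ing3 at 1.05, and Actr6 (-0.02) and Brd8 (0.16) lowest. The list's medians of 0.12 and 0.60 lay beside 0.12 and 0.42 over all genes.

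Of the 13 genes of H2A.X phosphorylation and its readers, 0 were higher in spermatogonium-like or early spermatocyte-like cells, where H2afx itself was, beside 13.2% and 8.77% of all genes. Atrip, the partner of the kinase ATR, was lower in both, beside 6.24% and 3.37% of all genes. It stood at 16.5 and 9.65 CPM in the first class (-0.78, -1.51 to -0.05, on 34 and 34 UMIs). In the second it was at 54.5 and 34.2 CPM (-0.67, -1.05 to -0.29). Later its ratio lay above 0, at 0.31 (0.16 to 0.47) in mid to late spermatocyte-like and 1.03 (0.63 to 1.43) in round spermatid-like cells. Topbp1, an activator of ATR, was at 24.7 and 37.9 CPM in mid to late spermatocyte-like cells (0.61, 0.52 to 0.71). It was the only one of the 13 higher there, beside 14.7% of all genes. In round spermatids 4 of 13 were higher, beside 19.1% of all genes, with the highest ratios for Atm (0.998 and 2.81 CPM, 1.5) and Topbp1 (1.19), with Hormad2 (-0.03) and Brca1 (0.01) lowest. In elongating cells 5 of 9 were, beside 37%, among them Prkdc (0.78 on 25 and 35 UMIs), Mdc1 (0.76) and Rnf168 (0.75), and Atr (0.28) and Ppp4c (0.53) were lowest. Among the 4 macroH2A and FACT partners none of 4 in round or 3 in elongating cells was higher, beside 19.1% and 37% of all genes. Ssrp1, a FACT subunit, had the highest ratio in round spermatids (0.48). Parp1 was the 1 of 4 lower in spermatogonium-like cells (284 and 186 CPM, -0.61), beside 6.24% of all genes.

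Over the 16 columns of 8 classes in 2 libraries, the genes with the most similar profile were ranked among 8593 genes by Pearson's r of log2(CPM + 10). The points share libraries and totals, so r is a description only. H3f3b was most like Zfp644 (0.970), Rbbp6 (0.968) and Togaram1 (0.967), and H3f3a less closely like Txndc9 (0.917), Arl5b (0.914) and C87436 (0.909). H2afz was most like Krcc1 (0.983), Cwc15 (0.968) and Tpp2 (0.967), and H2afv like Ddost (0.987), Magoh (0.981) and Twistnb (0.980). For H2afx they were Zbtb44 (0.965), Zfp91 (0.963) and Nol8 (0.95), and for H2afy Elf2 (0.962), Fyco1 (0.945) and Zcchc2 (0.919). The least well matched were H2afy2, with Mtss2 (0.896), Cxcl1 (0.830) and Dlgap1 (0.829), and H2afj, with Pgls (0.822), Glb1 (0.805) and Ssbp4 (0.763), 2 of which were highest in Leydig-like cells.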

How the data were processed

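UMI counts per gene and barcode from whole testis were deposited by the authors as Cell Ranger 7.0.0 matrices, per the file headers; the build was mm10 and Seurat 4.1.0 was used, per the submitters' processing notes. How ambiguous reads, reads in introns and strand were treated is not given in the sources used here. The members and gene lists were chosen with earlier results of these data known.

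A cell needed a minimum of 500 UMIs and 300 genes and a mitochondrial share of no more than 10%, a limit that removed 1510 control and 2150 cKO barcodes. Doublets were scored per library. The automatic threshold marked 0 cells, so a score of 0.3, set after the scores were seen, removed 317 control (1.99%) and 272 cKO cells (1.47%). It caught 20.8% and 13.6% of artificial doublets, so most doublets stayed in. With scanpy 1.11.5, log-normalised counts, 2000 variable genes ranked within libraries (no histone, transition protein, protamine gene or Dot1l), 30 components, 20 neighbours and Leiden resolution 1.0 gave the clusters, with no integration. Clusters were named X-like from fixed markers of 13 cell types by a rule set after the clusters were seen: a somatic name needed 3 or more markers 2-fold or more above the mean of clusters and spermatid markers under 66.7% of their level in all cells. Germ cell clusters with a median UMI count under 33.3% of that of their name's clusters were held apart as low RNA. Names are rebuilt and may differ from the study's.

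UMIs were summed per class and library, and the log2 ratio of CPM was given with an exact interval. The ratio step was checked on data with known ratios. Named genes were the members, Dot1l, from each list the 2 highest and 2 lowest ratios in round and in elongating spermatid-like cells among genes with 100 or more UMIs, and the 3 most similar profiles per member; list genes named in other classes were chosen after their values were seen. There were 12 alternatives, 11 planned and 1 added after the data were seen.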

Additional observations from a re-analysis of the deposited data

Results flagged for a closer look

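Some members had intervals on opposite sides of 0 in different cell classes, but the positive values carry the limits given with them. The difference between classes was not tested. H3f3b had a log2 ratio of cKO over control of -0.31 (-0.36 to -0.27) in early spermatocyte-like and 0.81 (0.75 to 0.87) in elongating spermatid-like cells. H2afz had -0.10 (-0.17 to -0.04) and 0.73 (0.66 to 0.81) in the same classes. In elongating cells the all-gene median was 0.42, and median-of-ratios scaling moved every gene by -0.38. The free RNA estimate there was 163% and 112% of the H3f3b UMIs in control and cKO, and 214% and 169% of the H2afz UMIs. H2afy had -0.13 (-0.23 to -0.02) in round spermatid-like and 1.08 (0.36 to 1.89) in Leydig-like cells. In the round spermatid clusters 6 and 7 its ratios were 0.21 and -0.12. The Leydig-like value rests on 17 control and 192 cKO UMIs, and the free RNA estimate was 88.9% and 62.5% of them.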

How the results depend on the processing

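The 13 higher pairs of a member and a germ cell class became 8 with classes from marker scores, 7 with median-of-ratios scaling, 8 with totals without the 50 most abundant genes and 7 with free RNA subtracted. The cause was not tested. The scalings shifted every gene of the elongating class by -0.38 and -0.21. Subtraction left 5 of the 13 without a value, where the free RNA estimate exceeded the UMIs counted and was too high. The 1 lower pair, H2afy2 in elongating cells on 38 and 13 UMIs, became 0 with the 10% highest doublet scores removed (ratio -1.19, too few UMIs), with only clusters mixed between libraries (-2.1, on 29 and 8 UMIs) and with free RNA subtracted (no value), and 2 with genes of 1 or more UMI or, as added after the data were seen, with cluster 3 among the round spermatids. The other alternatives gave 10 to 15 higher and 1 lower. Median-of-ratios scaling also shifted all genes by -0.11 in round spermatid-like, 0.13 in Leydig-like and 0.17 in mesenchymal-like cells. No called ratio changed sign under any alternative that gave a value. No paired analysis was possible because there is 1 library per genotype, and no library could be left out for the same reason. Counts under 20 UMIs, such as those of H2afj in control macrophage-like cells, and levels at or under the free RNA estimate limit what can be seen in small classes and in elongating cells.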
